A study of Mus musculus with 15 samples.

Results

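The level of 6 genes of primitive red blood cells was followed in the first branchial arch of E10.5 mouse embryos. The genes were the embryonic globin genes Hba-x, Hbb-bh1 and Hbb-y, the haem synthesis gene Alas2, and the transcription factor genes Klf1 and Gata1. Every probe set that the array's annotation gave to 1 of these 6 symbols was taken, which made 10 probe sets of 45101 on the array. All 10 passed the filter on dim values that kept 31643 probe sets, and the 6 genes stood among 13934 genes with a kept probe set of 1 symbol. The main probe set of a gene was its brightest one not marked as cross-hybridizing: 1448716_at for Hba-x, 1437810_a_at for Hbb-bh1, 1450621_a_at for Hbb-y, 1451675_a_at for Alas2, 1418600_at for Klf1 and 1449232_at for Gata1. Hbb-bh1 (also 1437990_x_at and 1450736_a_at) and Hbb-y (also 1436717_x_at and 1436823_x_at) had 3 probe sets each.

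The first arch forms the jaws, and its mandibular and maxillary branches were measured separately, on 15 Affymetrix arrays in 5 groups of 3. The titles tagged the groups 5_6_MNA (Dlx5/6 mutant, mandibular), WT_MNA (wild type, mandibular), KO_MXA (a knockout, maxillary), WT_MXA2 (wild type, maxillary) and WT_MXA (wild type, maxillary). The labels did not name the gene lost in KO_MXA, and their shared description, written as a plan, listed dlx2, dlx1/2 and Dlx5/6 mutants. No allele, strain or driver was named, what set WT_MXA2 apart from WT_MXA was not said, and pooling of arches was foreseen. Whether the 3 arrays of a group stand for separate embryos or pools was not stated, so each p value below reads only the spread between arrays, which may be technical.

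Primitive red cells arise in the blood islands of the yolk sac, enter the circulation while still nucleated, and fill the vessels of the embryo before red cells of the fetal liver take over. They build haemoglobin from the embryonic alpha-like chain zeta, encoded by Hba-x, and the embryonic beta-like chains, encoded by Hbb-y (epsilon-y) and Hbb-bh1 (beta-h1). They also make adult alpha chains. Alas2 encodes the red cell form of the enzyme that starts haem synthesis. Gata1, a zinc finger factor that binds GATA motifs, and Klf1, a zinc finger factor that binds CACCC motifs, switch on globin and haem genes in these cells. The arch is crossed by blood vessels, and in bulk RNA of dissected tissue fewer red cells and less RNA per red cell cannot be told apart.

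The promoters of 4 of the genes are shown because they hold both kinds of motif that Gata1 and Klf1 are known to bind. Each window runs from 250 bases before to 50 bases after the gene's start, 5′ to 3′ along the gene, from RefSeq on build GRCm38.p6. The windows are chr11:32276350-32276649 (plus strand, Hba-x), chr7:103853158-103853457 (minus strand, Hbb-y), chrX:150547167-150547466 (plus strand, Alas2) and chr8:84901732-84902031 (plus strand, Klf1). Capitals mark 4 motifs on either strand, which are GATAA (with TTATC for the other strand), the motif CACCC (with GGGTG), the motif CCAAT (with ATTGG) and the motif TATAA (with TTATA).
Hba-x: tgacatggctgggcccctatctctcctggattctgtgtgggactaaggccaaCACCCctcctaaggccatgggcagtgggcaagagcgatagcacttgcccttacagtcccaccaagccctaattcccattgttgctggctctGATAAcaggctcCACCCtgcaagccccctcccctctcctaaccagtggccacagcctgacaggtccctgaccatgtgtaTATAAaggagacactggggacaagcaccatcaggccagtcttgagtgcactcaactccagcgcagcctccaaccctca
Hbb-y: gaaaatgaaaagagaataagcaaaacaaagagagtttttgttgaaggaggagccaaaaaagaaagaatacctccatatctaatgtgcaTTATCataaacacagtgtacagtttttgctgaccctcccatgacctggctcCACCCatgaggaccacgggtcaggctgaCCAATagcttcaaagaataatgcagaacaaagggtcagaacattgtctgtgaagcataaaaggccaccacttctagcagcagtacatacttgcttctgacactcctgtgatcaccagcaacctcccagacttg
Alas2: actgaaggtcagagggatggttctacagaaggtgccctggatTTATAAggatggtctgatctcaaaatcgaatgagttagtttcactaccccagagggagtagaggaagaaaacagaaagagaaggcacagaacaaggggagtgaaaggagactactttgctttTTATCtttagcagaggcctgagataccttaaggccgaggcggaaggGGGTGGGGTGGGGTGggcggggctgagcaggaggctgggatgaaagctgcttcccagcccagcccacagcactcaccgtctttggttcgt
Klf1: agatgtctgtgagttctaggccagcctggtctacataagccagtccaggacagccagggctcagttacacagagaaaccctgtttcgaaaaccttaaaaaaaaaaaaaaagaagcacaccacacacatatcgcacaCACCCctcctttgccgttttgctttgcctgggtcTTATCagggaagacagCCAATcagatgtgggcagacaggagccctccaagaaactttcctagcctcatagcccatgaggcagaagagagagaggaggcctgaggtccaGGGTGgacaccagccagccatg

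Promoters were matched for 5 of the 6 genes, all but Hbb-bh1. GATAA lay in 4 of the 5 windows, against 25.4% of 32851 promoter windows of the same length, and CACCC lay in 5 of 5, against 57.5%. Both lay in 4 of 5, against 12.6% of all windows. In Hba-x they stood 107 and 95 bases before the start, with TATAA 28 bases before it. In Hbb-y GATAA stood at position -162 and CACCC at -111, with CCAAT at -83. In Alas2 GATAA stood at -86 and 3 CACCC motifs stood back to back at -40, -35 and -30, with TATAA on both strands at -208 and -207, which overlap. In Klf1 GATAA stood at -80 and CACCC at -114 and 28, with CCAAT at -64. The window of Gata1 held CACCC at -74 and -52 and no GATAA. Of all windows, CCAAT lay in 37.4% and TATAA in 24.9%. These matches describe letters in a window and were not measured as bound sites.

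Intensities were the values deposited for each probe set, on a linear scale on which the array medians ran from 26.6 to 33.5. The arrays formed a pair of array sets by the bacterial dap spike-in control, whose mean was 311.5 to 364.2 on the 9 arrays of 5_6_MNA, WT_MNA and WT_MXA and 2746 to 3038 on the 6 arrays of KO_MXA and WT_MXA2. The 3 main comparisons were therefore made within an array set, as 5_6_MNA against WT_MNA, WT_MNA against WT_MXA and KO_MXA against WT_MXA2. The correlation between arrays of 1 group was 0.984 to 0.99. On the probe sets of the mutated genes, Dlx5 had 7.96 to 13.9 in 5_6_MNA against 690 to 770 in WT_MNA, and Dlx6 had 2.28 to 5.07 in 5_6_MNA against 196 to 298 in WT_MNA. Where these probe sets lie in relation to the mutation was not given. The 3'/5' ratios that track RNA quality were 1.22 to 1.52 for actin and 0.793 to 0.958 for Gapdh. The summed intensity of 8 markers of arch mesenchyme was 6253 to 8639, most of it from Prrx1, Twist1 and Prrx2. Dlx2, another of the 8, had only 3.21 to 3.56 in KO_MXA, under the median of those arrays, against 402 to 442 in WT_MXA2.

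**Figure D1:**
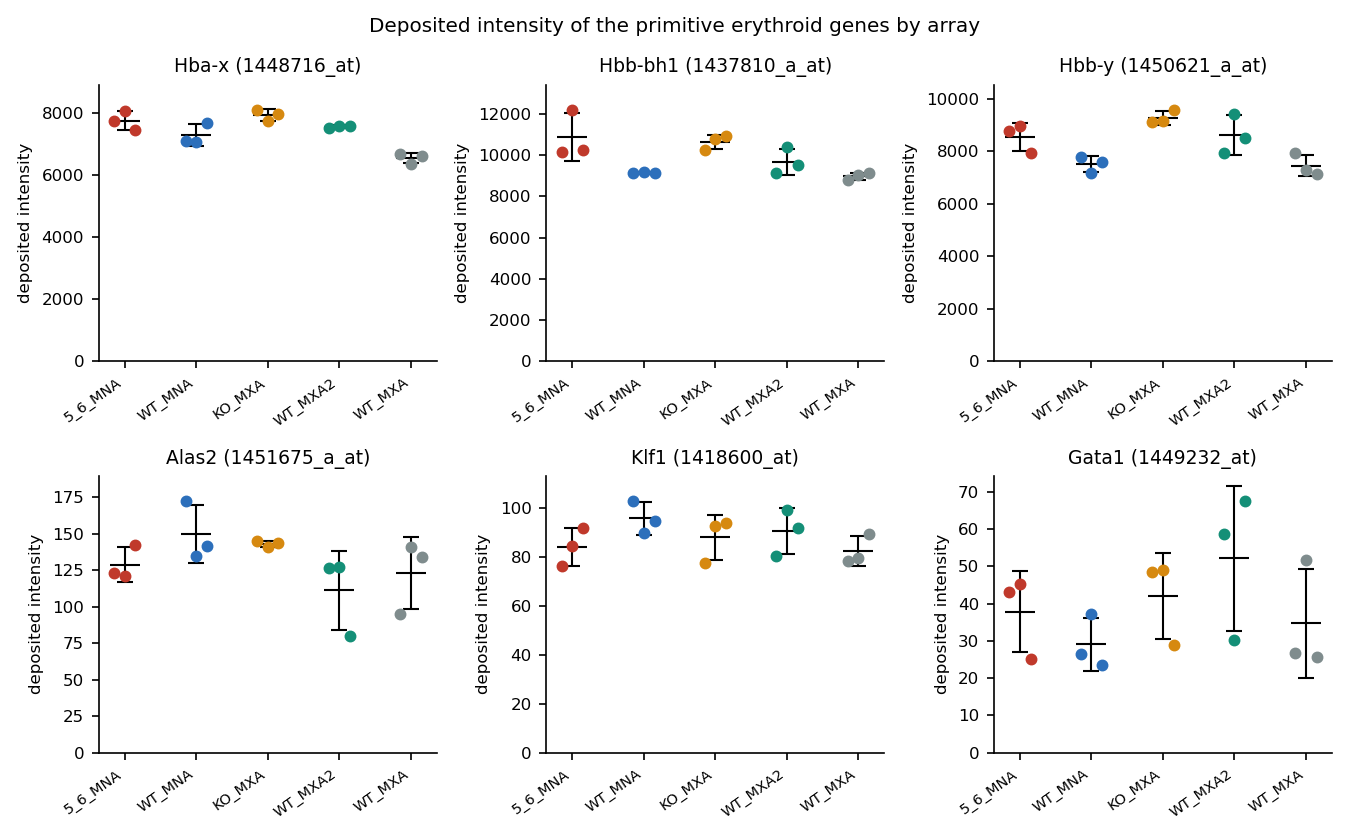
Deposited intensity of each of the 6 genes on its main probe set (vertical axis, linear, 1 panel a gene with its own scale) on the 15 arrays, by group. Points are arrays, long bars are group means and whiskers are the SD (n = 3). The globin panels lie between 6347 and 12220 in every group, and the Alas2, Klf1 and Gata1 panels lie between 23.4 and 172.

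The embryonic globin genes were read at the top of every array's range. Their 7 probe sets lay at or above the 99.4th percentile of the array on all 15 arrays. Alas2 lay between the 66.8th and 77.4th percentile, Klf1 between the 65.8th and 70.4th, and Gata1 between the 45.9th and 64.2nd. Array intensities do not compare amounts between different probe sets, so these places describe each probe set alone.

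Hba-x, which encodes the zeta chain, had intensities of 7744, 8039 and 7429 in 5_6_MNA and 7079, 7070 and 7673 in WT_MNA. In the maxillary groups it had 8097, 7721 and 7948 in KO_MXA, 7490, 7576 and 7567 in WT_MXA2, and 6658, 6347 and 6588 in WT_MXA. On this deposited scale all 3 WT_MXA arrays lay below every other array, and KO_MXA lay above WT_MXA2 and WT_MNA, while the remaining groups overlapped. Of kept probe sets 8.41% were higher without overlap in KO_MXA against WT_MXA2, and 12.1% in WT_MXA2 against WT_MXA. After the quantile normalization described below, Hba-x overlapped in both of these comparisons. Differences that cross the array sets cannot be told apart from the array set.

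Hbb-bh1, which encodes the beta-h1 chain, had intensities of 10176, 12220 and 10258 in 5_6_MNA and 9124, 9196 and 9139 in WT_MNA on its main probe set. In KO_MXA it had 10279, 10792 and 10920, against 9154, 10386 and 9521 in WT_MXA2 and 8778, 9034 and 9122 in WT_MXA. The array 5_6_MNA replicate 2 stood above all others, and the 3 WT_MNA arrays lay close together. The other probe sets of Hbb-bh1 gave group means from 6632 to 11742.

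Hbb-y, which encodes the epsilon-y chain, had intensities of 8757, 8945 and 7922 in 5_6_MNA and 7770, 7180 and 7593 in WT_MNA. In KO_MXA it had 9093, 9143 and 9579, against 7932, 9414 and 8503 in WT_MXA2 and 7912, 7283 and 7136 in WT_MXA. The 5_6_MNA arrays lay above all WT_MNA arrays on this scale, while KO_MXA and WT_MXA2 overlapped. Its other probe sets, both marked as cross-hybridizing, gave group means from 9787 to 12448.

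Alas2, the haem synthesis enzyme gene, had intensities of 123, 121 and 142 in 5_6_MNA and 172, 135 and 142 in WT_MNA. In KO_MXA it had 145, 141 and 144, against 127, 127 and 80.0 in WT_MXA2 and 95.03, 141 and 134 in WT_MXA. The 3 KO_MXA arrays lay above all WT_MXA2 arrays, as they did for 8.41% of kept probe sets. Of the WT_MXA2 arrays, replicate 3 was the lowest of all 15 arrays.

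Klf1, the CACCC-binding factor gene, had intensities of 76.5, 84.6 and 91.9 in 5_6_MNA and 103, 89.9 and 94.7 in WT_MNA. In KO_MXA it had 77.5, 92.8 and 94.1, against 80.5, 99.4 and 92.1 in WT_MXA2 and 78.6, 79.7 and 89.4 in WT_MXA. Only WT_MNA and WT_MXA stood apart, with all 3 WT_MNA arrays higher, as they were for 8.22% of kept probe sets.

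Gata1, the GATA-binding factor gene, had intensities of 43.1, 45.2 and 25.3 in 5_6_MNA and 26.6, 37.1 and 23.4 in WT_MNA. In KO_MXA it had 48.4, 49.2 and 28.9, against 58.8, 30.2 and 67.6 in WT_MXA2 and 26.7, 51.6 and 25.7 in WT_MXA. Its groups all overlapped, and its lowest values lay under the median of their arrays.

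Changes between groups were tested on log2(intensity + 32) after quantile normalization, which gives every array the same distribution of values, in 1 limma model over all kept probe sets. Adding 32 shrinks the log2 changes of dim genes, so those of Alas2, Klf1 and Gata1 are understated. A change was called at a limma adjusted p under 0.05, ± after a log2 change is its SE, and ± after an intensity is the SD (n = 3).

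The first question was whether the Dlx5/6 mutation went with a different level of red cell transcripts in the mandibular branch. No call was made for any of the 6 genes in 5_6_MNA against WT_MNA, where 2.66% of all kept probe sets were called. The log2 changes were -0.06 ± 0.05 for Hba-x, 0.014 ± 0.04 for Hbb-bh1, 0.016 ± 0.05 for Hbb-y, -0.15 ± 0.14 for Alas2, -0.11 ± 0.11 for Klf1 and 0.17 ± 0.19 for Gata1. Their limma adjusted p ran from 0.65 to 0.945, and 0 of the 10 probe sets had an unadjusted p under 0.05. The 95% intervals were narrow for the globin genes, from -0.17 to 0.04 for Hba-x, from -0.07 to 0.10 for Hbb-bh1 and from -0.08 to 0.11 for Hbb-y. They were wide for the dim genes, from -0.43 to 0.14 for Alas2 and from -0.23 to 0.58 for Gata1. Array signal is known to flatten at the top of its range, where the globin probe sets lay, and quantile normalization sets values there from a distribution shared by all arrays. The narrow intervals therefore do not show that globin RNA was equal.

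The globin values of this comparison turned on the scaling. On the deposited scale 6 of the 10 probe sets were higher in every 5_6_MNA array than in every WT_MNA array, where 9.71% of kept probe sets did so. These were all the probe sets of Hbb-bh1 and Hbb-y, so they are repeat readings of 2 genes. Hba-x, Alas2, Klf1 and Gata1 overlapped. The log2 changes of the Hbb-bh1 and Hbb-y probe sets there ran from 0.14 to 0.24. Hbb-bh1 was called on its main probe set (0.24 ± 0.07, limma adjusted p = 0.043), the 1 gene of the 6 called there, beside 3.06% of kept probe sets. With the arrays shifted to a common median that value was 0.22 ± 0.06 and its limma adjusted p 0.0633, so 0 of the 6 were called, beside 2.69% of kept probe sets. After quantile normalization the 6 changes ran from -0.06 to 0.016, and 2 of the 10 probe sets were lower without overlap, against 9.76% of kept probe sets. The 99th percentile of the intensities was 4198 to 4508 on the 5_6_MNA arrays and 3988 to 4103 on the WT_MNA arrays, without overlap, and the globin probe sets lay above it on every array. The part of this shift in the globin values was not tested.

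**Figure D2:**
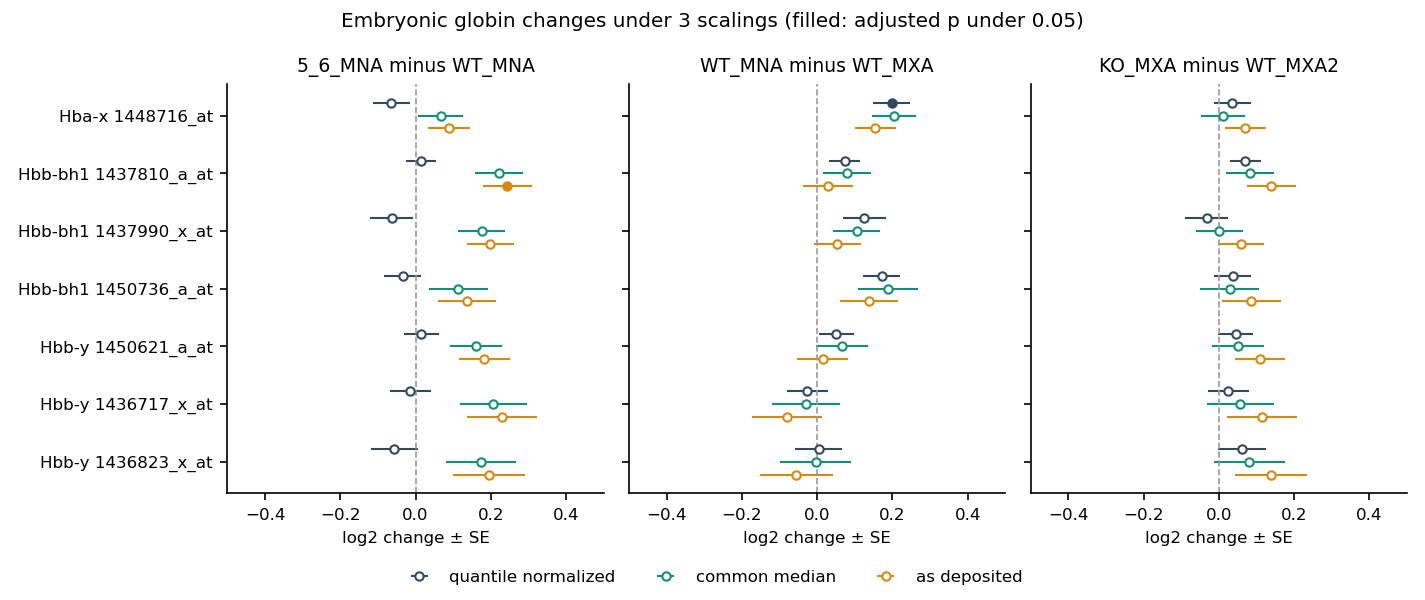
Log2 change ± SE (horizontal axis) of the 7 embryonic globin probe sets, 1 a row, in 3 comparisons under 3 scalings, which are quantile normalization (dark), arrays shifted to a common median (green) and the deposited scale (orange). Filled points are called. In 5_6_MNA against WT_MNA the Hbb-bh1 and Hbb-y probe sets lie between 0.14 and 0.24 on the deposited scale and between -0.06 and 0.016 after quantile normalization.

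The second comparison set the wild-type branches against each other. Hba-x was higher in WT_MNA than in WT_MXA and was the 1 gene of the 6 that was called, where 2.64% of all kept probe sets were called. Its log2 change was 0.20 ± 0.05 (limma adjusted p = 0.025), a ratio of 1.15, and all 3 WT_MNA arrays lay above all 3 WT_MXA arrays on both scales. This call was not stable. It was lost on the deposited scale (0.15, limma adjusted p = 0.185), where 0 of the 6 genes and 2.61% of kept probe sets were called. It was also lost after the common median (0.21, limma adjusted p = 0.0638), where 0 of the 6 genes and 2.54% of kept probe sets were called. Leaving out 1 array ended it without WT_MNA replicate 2 (limma adjusted p = 0.0557), WT_MNA replicate 3 (0.157), WT_MXA replicate 1 (0.107) or WT_MXA replicate 2 (0.0784). Against WT_MXA2, which lies in the other array set, the Hba-x change was 0.11 with a limma adjusted p of 0.18. There Hbb-bh1 was called in its place (0.16 ± 0.04, limma adjusted p = 0.00923), in a comparison that crosses the array sets and called 3318 of 31643 kept probe sets.

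Hbb-bh1 gave changes of 0.07 ± 0.04, 0.13 ± 0.06 and 0.17 ± 0.05 on its 3 probe sets in WT_MNA against WT_MXA, with limma adjusted p of 0.511, 0.363 and 0.0717. Hbb-y gave changes from -0.03 to 0.05. Alas2 had 0.23 ± 0.14 (limma adjusted p = 0.552), Klf1 0.16 ± 0.11 (0.648) and Gata1 -0.07 ± 0.19 (0.939). After normalization 4 of the 10 probe sets were higher in WT_MNA without overlap, against 9.06% of kept probe sets, and those were Hba-x, Klf1 and a pair of Hbb-bh1 probe sets.

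The third comparison set the knockout maxillary branch against its wild type. No call was made for any of the 6 genes in KO_MXA against WT_MXA2, where 0.913% of all kept probe sets were called. The globin log2 changes were 0.04 ± 0.05 for Hba-x, 0.07 ± 0.04 for Hbb-bh1 and 0.05 ± 0.05 for Hbb-y. Over all 7 globin probe sets they ran from -0.03 to 0.07. Alas2 had the largest value, 0.29 ± 0.14, with an unadjusted p of 0.0494 and a limma adjusted p of 0.487, and its mean intensity was 143 ± 1.92 in KO_MXA and 111 ± 27.0 in WT_MXA2. Without WT_MXA2 replicate 3, its lowest array, the Alas2 change was 0.12. Klf1 had -0.07 ± 0.11 and Gata1 -0.21 ± 0.19. After normalization 2 of the 10 probe sets were higher in KO_MXA without overlap, against 7.12% of kept probe sets, and they were Alas2 and the main probe set of Hbb-bh1.

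**Figure D3:**
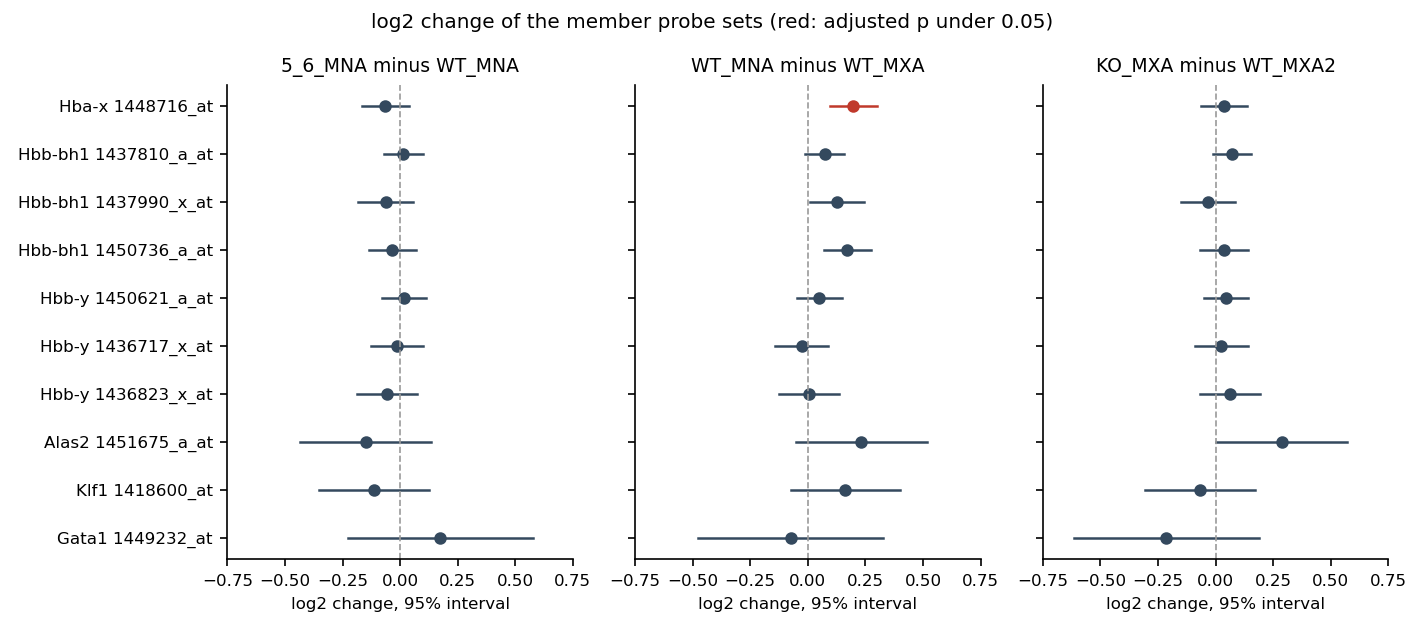
Log2 change with 95% interval (horizontal axis) of the 10 probe sets of the 6 genes in 3 comparisons, after quantile normalization. The red point is called at a limma adjusted p under 0.05, dark points are not. Hba-x in WT_MNA against WT_MXA, at 0.20, is the 1 called point, and the globin intervals are narrower than those of Alas2, Klf1 and Gata1.

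The effects of both mutants were also set against each other, as the change in 5_6_MNA against WT_MNA minus the change in KO_MXA against WT_MXA2. This difference was called for 0 of the 6 genes, where 1.09% of all kept probe sets were called. Alas2 gave the lowest p, with a difference of -0.44 ± 0.19 (unadjusted p = 0.0357, limma adjusted p = 0.451), from changes of -0.15 and 0.29. The globin differences ran from -0.12 to -0.03 over the 7 probe sets after quantile normalization. Their direction turned with the scaling, since all 7 were above 0 after the common median (0.0543 to 0.175) and on the deposited scale (0.019 to 0.139). Under either scaling 0 of the 6 genes were called, beside 1.07% of kept probe sets. Branch, array set and genotype differ together between these effects and cannot be told apart.

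A further pair of comparisons used WT_MXA as the baseline. In 5_6_MNA against WT_MXA 0 of the 6 genes were called, where 0.594% of all kept probe sets were called, and Hba-x had 0.13 ± 0.05 (limma adjusted p = 0.374). After the common median 2 were called there, Hba-x (0.27 ± 0.06, limma adjusted p = 0.0234) and Hbb-bh1 (0.30 ± 0.06, 0.0195), beside 0.66% of kept probe sets. On the deposited scale 1 was called, Hba-x (0.24 ± 0.05, limma adjusted p = 0.0351), beside 0.676%, and against WT_MXA2 in its place 1 was called, Hbb-bh1 (0.18 ± 0.04, limma adjusted p = 0.00492), beside 11.2%.

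In WT_MXA2 against WT_MXA, which crosses the array sets, 0 of the 6 were called, where 8.49% of all kept probe sets were called. There Hba-x had 0.09 ± 0.05 (limma adjusted p = 0.31) and the main probe set of Hbb-bh1 -0.09 ± 0.04 (0.185), while the Hbb-bh1 probe set 1450736_a_at had 0.15 ± 0.05 (0.0694). Probe sets of Hbb-bh1 thus lay on opposite sides of 0, but only after quantile normalization. After the common median all 3 were above 0 (0.113, 0.0887 and 0.283), as they were on the deposited scale (0.108, 0.0832 and 0.277), and 1450736_a_at was called under both (limma adjusted p = 0.0265 and 0.0269). After the common median Hba-x was called (0.21 ± 0.06, limma adjusted p = 0.0246), 1 gene of the 6 by main probe set beside 7.9% of kept probe sets. On the deposited scale it was called as well (0.21 ± 0.05, limma adjusted p = 0.0187), again 1 of the 6, beside 8.63%. These comparisons share WT_MNA, WT_MXA2 or WT_MXA arrays, so their values are not independent.

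The levels of each gene on its main probe set were ordered over the 5 groups after quantile normalization. This order crosses the array sets, so places of KO_MXA and WT_MXA2 among the other groups cannot be told apart from the array set. Hba-x ran from 12.95 in WT_MNA through 12.89 in 5_6_MNA, 12.88 in KO_MXA and 12.84 in WT_MXA2 to 12.75 in WT_MXA on the log2 scale, and each neighbour in that order overlapped the next. Hbb-bh1 was highest in 5_6_MNA (13.34) and lowest in WT_MXA2 (13.16), and only the last step, from KO_MXA at 13.23, was free of overlap. Its other probe sets gave other orders, with 1450736_a_at highest in KO_MXA and lowest in WT_MXA and 1437990_x_at highest in WT_MNA and lowest in KO_MXA. On the deposited scale the main probe set of Hbb-bh1 was lowest in WT_MXA (8978, with 9687 in WT_MXA2), so its order also turned with the scaling. Hbb-y was highest in KO_MXA (13.06) and lowest in WT_MXA (12.95), with overlap at every step, whereas both of its cross-hybridizing probe sets were lowest in WT_MXA2. Alas2 was highest in WT_MNA (7.49) and lowest in WT_MXA2 (7.16), Klf1 was highest in WT_MNA (6.99) and lowest in WT_MXA (6.83), and Gata1 was highest in WT_MXA2 (6.37) and lowest in WT_MNA (5.97). Neighbours overlapped at every step for these 3 genes too.

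The erythroid genes around the 6 were described with 4 lists, which named 50 symbols for adult globins, haem synthesis, erythroid transcription factors and red cell membrane proteins, of which 37 were measured. In 5_6_MNA against WT_MNA 0 of the 37 were called higher and 0 lower, where 220 of all 13934 genes were called higher and 220 lower. The median log2 change was -0.03 beside -0.0078 over all genes. In KO_MXA against WT_MXA2 0 were called higher and 0 lower, where 89 of all genes were called higher and 86 lower. The median was 0.01 beside -0.0016 over all genes. In WT_MNA against WT_MXA 1 was called higher and 0 lower, where 217 of all genes were called higher and 279 lower. The median was 0.02 beside 0.0041 over all genes.

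The called gene was Myb, a transcription factor of blood progenitors that is also made in other dividing cells. It had a mean intensity of 153 ± 14.7 in WT_MNA and 97.1 ± 15.4 in WT_MXA, a log2 change of 0.52 ± 0.14 (limma adjusted p = 0.0395). Its other probe sets had changes of 0.19 and 0.18 and were not called. The call was kept under 8 of 16 other settings, and it was lost without any 1 of WT_MNA replicates 1, 2 and 3 or WT_MXA replicates 2 and 3 (limma adjusted p up to 0.179 over all settings). In 5_6_MNA against WT_MNA its change was -0.48, with a limma adjusted p of 0.0646.

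Haem synthesis genes described here are Alad, the second enzyme of the pathway, and Urod, a later enzyme. Alad had 560.5 ± 12.7 in 5_6_MNA and 615.5 ± 32.2 in WT_MNA, and 346 ± 10.6 in KO_MXA, 339 ± 38.9 in WT_MXA2 and 615.5 ± 43.2 in WT_MXA. Its change of -0.78 in WT_MXA2 against WT_MXA (limma adjusted p = 6.46e-07) followed the array sets. Urod had group means from 316 to 362.

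Among the transcription factors Klf3, a repressor of the same factor family as Klf1, had group means from 525 to 660.2, and Bcl11a, a repressor of embryonic globin genes in adult red cells, had 466 to 594. In the membrane list Tfrc, the receptor that brings iron-loaded transferrin into cells, had 898 to 943.5, and Slc4a1, the band 3 anion exchanger of red cells, had 151 to 168. Apart from Myb neither list had a called gene in the 3 main comparisons. Tfrc and Klf3 are made by many cell types, so their levels do not mark red cells. Which cells made the RNA of the other listed genes was not tested.

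**Figure D4:**
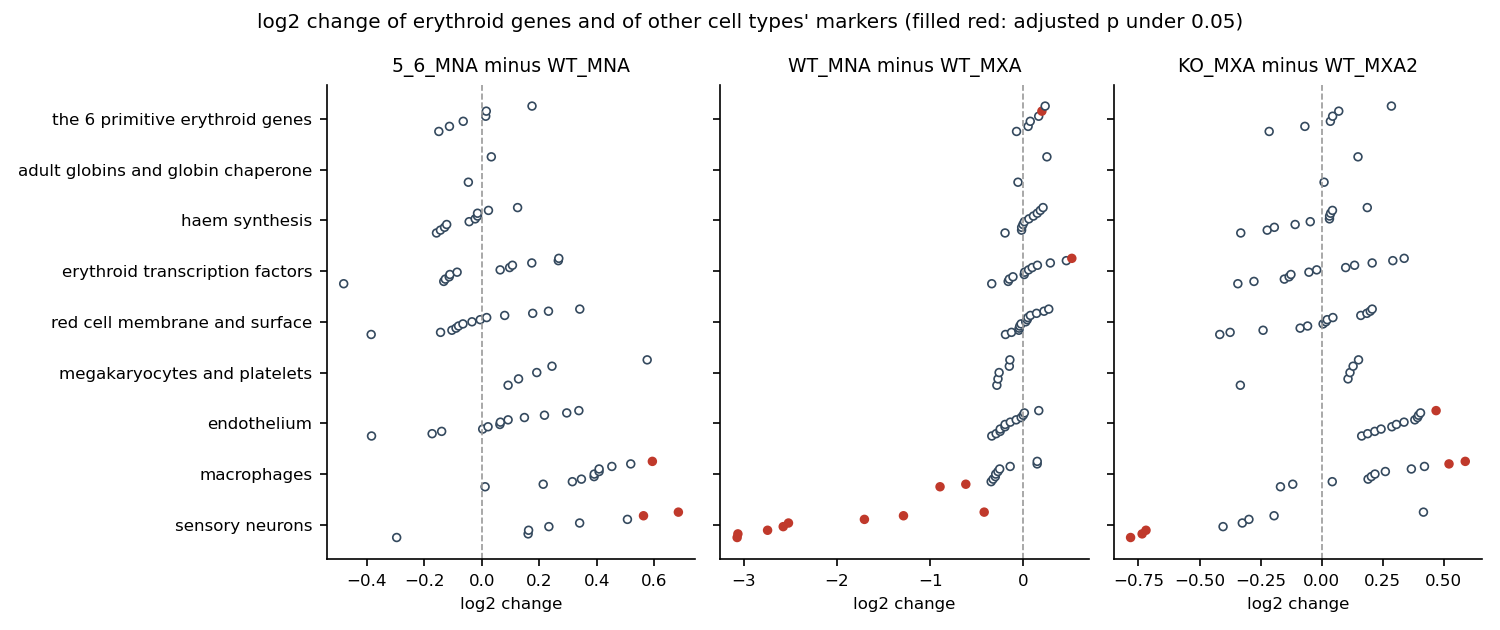
Log2 change (horizontal axis) of every measured gene of the erythroid and marker lists, except arch mesenchyme, in 3 comparisons after quantile normalization. Each list has 1 row, and filled red points are called genes. The top row holds the 6 genes, and the scales of the panels differ. The other erythroid lists centre near 0, with Myb at 0.52 in WT_MNA against WT_MXA as their 1 filled point, and the sensory neuron list lies below 0 in that comparison.

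The adult globins were read by probe sets of different kinds. Probe sets given to Hba-a2 or Hbb-b2 alone lay near or below the array median, with group means from 22.4 to 40.1 and from 13.4 to 19.3. A further 4 probe sets were given to several adult globin genes at once and cannot be assigned to any 1 of them, and these were looked up after the values of the lists were seen. Of these, 3 were alpha-like. The alpha-like probe sets 1428361_x_at and 1452757_s_at had group means from 8431 to 10740 and from 7276 to 8668. The beta-like probe set 1417184_s_at had 796 ± 37.8 in 5_6_MNA and 937 ± 49.9 in WT_MNA, and 1085 ± 73.5 in KO_MXA, 1118 ± 26.7 in WT_MXA2 and 749.5 ± 29.4 in WT_MXA. It rose in WT_MNA against WT_MXA, by 0.31 ± 0.07 (limma adjusted p = 0.00826), in the same direction as Hba-x. That call was lost without WT_MNA replicate 2 or WT_MXA replicate 3, and against WT_MXA2, in the other array set, the value was -0.24 (limma adjusted p = 0.0226). In WT_MXA2 against WT_MXA, across array sets, this probe set had a larger change of 0.55 ± 0.07 (limma adjusted p = 8.49e-06).

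The alpha-like probe set 1417714_x_at split by array set. It had 4452 ± 281 in 5_6_MNA and 3434 ± 136 in WT_MNA, and 696 ± 35.4 in KO_MXA, 691 ± 91.6 in WT_MXA2 and 2917 ± 50.2 in WT_MXA. The change in WT_MXA2 against WT_MXA was -2.08 ± 0.07 (limma adjusted p = 5.42e-15), while the other alpha-like probe sets had 0.03 ± 0.05 and 0.0018 ± 0.04 there. In 5_6_MNA against WT_MNA it rose by 0.26 ± 0.07 (limma adjusted p = 0.0498), beside -0.06 and 0.012 for the other alpha-like probe sets. That call was kept under 6 of 15 other settings and lost without any 1 of the 6 arrays. In 5_6_MNA against WT_MXA the same probe set had 0.49 ± 0.07 (limma adjusted p = 0.000295) and was called under all 16 other settings. The other alpha-like probe sets had -0.02 and 0.12 there and were not called. What the array sets differ in was not stated, and the array set cannot be told apart from the groups it holds.

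Markers of other cells that travel or sit with blood were read beside these values. Their counts of calls stand beside the counts over all genes given above for each main comparison. The sums add deposited intensities over the main probe sets of a list, so its brightest genes weigh most, and they were not tested. Bright genes were Csf1r, with a mean of 274 in KO_MXA and 170.5 in WT_MXA2, and Emcn, with 427 and 302. In 5_6_MNA against WT_MNA the 5 measured megakaryocyte and platelet genes had 0 calls and a summed intensity of 396 to 442 in 5_6_MNA against 332 to 348 in WT_MNA. The 12 endothelial genes had 0 calls there, with sums of 1179 to 1324 in 5_6_MNA against 1144 to 1300 in WT_MNA. Of 11 macrophage genes 1 was called higher, Csf1r, the receptor of a macrophage growth factor (0.59 ± 0.09, limma adjusted p = 0.000406), with sums of 659 to 718 in 5_6_MNA against 423 to 434 in WT_MNA. All 11 macrophage changes were above 0, with a median of 0.39 beside -0.0078 over all genes. All 5 platelet changes were above 0 as well, and 9 endothelial changes were above 0 and 3 below. Of the 8 sensory neuron genes 2 were called higher, Sst (0.68) and Neurod1 (0.56), with sums of 480.5 to 532 in 5_6_MNA against 449.9 to 489 in WT_MNA. Both genes were dim, with means of 29.7 and 24.1 in 5_6_MNA and of 5.91 and 6.08, under the array medians, in WT_MNA. Most of the sums came from Isl1 (275 in 5_6_MNA and 345 in WT_MNA), whose change of -0.30 was not called.

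Beside the Hba-x call, in WT_MNA against WT_MXA, the endothelial list had 0 calls, with sums of 1144 to 1300 in WT_MNA against 1293 to 1451 in WT_MXA, and the platelet list had 0 calls, with sums of 332 to 348 in WT_MNA against 357 to 495 in WT_MXA. Of the macrophage genes 2 were called lower, Csf1r (-0.62) and the complement gene C1qa (-0.89), with sums of 423 to 434 in WT_MNA against 647.5 to 666 in WT_MXA. Changes were below 0 for 9 of the 11 macrophage genes, 10 of the 12 endothelial genes and all 5 platelet genes. In each of the first 2 lists 2 changes were above 0. All 8 sensory neuron genes were called lower, with sums of 449.9 to 489 in WT_MNA against 2460 to 2553 in WT_MXA. They were led by the neurofilament genes Nefl (-3.07) and Nefm (-3.06), the microtubule regulator gene Stmn2 (-2.74) and the peptide gene Sst (-2.58), and included the neural factor genes Neurod1 (-2.52) and Neurog1 (-1.71). The wild-type maxillary groups also differed in this list, with sums of 979 to 1084 in WT_MXA2. In WT_MXA2 against WT_MXA, across array sets, 7 of the 8 genes were called lower, beside 711 of all 13934 genes. The part of these cells in the Hba-x value was not tested.

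In KO_MXA against WT_MXA2 the endothelial list had 1 of 12 called higher, the vessel sialomucin gene Emcn (0.47 ± 0.09, limma adjusted p = 0.00964), and all 12 changes were above 0, with sums of 1643 to 1861 in KO_MXA against 1197 to 1333 in WT_MXA2. The macrophage list had 2 of 11 called higher, Csf1r (0.59) and the mannose receptor gene Mrc1 (0.52), with sums of 885 to 931 in KO_MXA against 595 to 675 in WT_MXA2. The platelet list had 0 of 5 called, with sums of 435.0 to 516 in KO_MXA against 378 to 507 in WT_MXA2. Changes were above 0 for 9 macrophage and 4 platelet genes and below 0 for 2 and 1. Of the 8 neuron genes 3 were called lower, Neurog1 (-0.78), Nefm (-0.74) and Nefl (-0.72), with sums of 818 to 848 in KO_MXA against 979 to 1084 in WT_MXA2. No marker gene of any list was at 0 on an array. Several of these calls were lost when 1 array was left out, among them Sst and Neurod1 in 5_6_MNA, C1qa and Isl1 in WT_MNA, and Emcn, Mrc1, Neurog1 and Nefl in KO_MXA. The Csf1r calls were kept under every other setting run on that probe set, but its other probe sets were called in none of the 3 comparisons. They had 0.51 and 0.18 in 5_6_MNA against WT_MNA, 0.54 and 0.05 in KO_MXA against WT_MXA2, and -0.41 and -0.32 in WT_MNA against WT_MXA. Of the called neuron genes, other probe sets were not called for Neurod1 in 5_6_MNA (0.54), Nefl in KO_MXA (-0.18) and Isl1 in WT_MNA (-0.36). In WT_MNA against WT_MXA those of Nefl (-1.91), Neurod1 (-2.13), Pou4f1 (-0.94) and Stmn2 (-2.51) were called lower.

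Among the platelet genes, Pf4, a platelet chemokine, had group means from 193 to 254, and Itga2b, a platelet integrin, had 54.3 to 82.1. Among the endothelial genes, Emcn had 259.6 to 427, and Cldn5, a tight junction protein of vessels, had 106 to 178.5. Of the macrophage genes, Csf1r had 114 to 274 and the complement gene C1qb had 59.1 to 125. Of the neuron genes, Isl1 had 260.0 to 470.4 and Nefm had 49.7 to 664, both highest in WT_MXA.

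The genes of arch mesenchyme, among them the homeobox gene Prrx1 (group means from 2683 to 3471) and the mesenchymal factor gene Twist1 (1348 to 1842), differed between the groups as well. In 5_6_MNA against WT_MNA 3 of 8 were called higher, Dlx1 (0.72), Prrx2 (0.50) and Twist1 (0.45), and 1 lower, Msx1 (-0.57). In WT_MNA against WT_MXA 5 were called lower, Prrx2 (-0.81), Tfap2a (-0.51), Twist1 (-0.39), Dlx1 (-0.37) and Prrx1 (-0.30). In KO_MXA against WT_MXA2 1 was called higher, Tfap2a (0.62), and 4 lower, Dlx2 (-3.70), Dlx1 (-1.62), Msx2 (-0.36) and Prrx1 (-0.28). The calls of Msx1 in 5_6_MNA, of Prrx1 in WT_MNA and of Msx2 and Prrx1 in KO_MXA were lost with 1 array left out. Other probe sets of these genes often differed in KO_MXA against WT_MXA2. For Msx2 the other probe set had 0.11, for Prrx1 0 of 5 others were called (-0.53 to -0.0101), and for Tfap2a 1 other was called (0.62) and 1 was not (0.07).

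How the 6 genes varied from array to array within a group was described by their deviations from the group means over 15 arrays. The SD within a group ran from 0.0041 to 0.098 on the log2 scale for the main globin probe sets, from 0.018 to 0.296 for Alas2, from 0.066 to 0.114 for Klf1 and from 0.17 to 0.38 for Gata1. The 2 cross-hybridizing probe sets of Hbb-y deviated together (r = 0.941), whereas Klf1 and Gata1 deviated in opposite directions (r = -0.604), and Hba-x had r = 0.327 with the main probe set of Hbb-bh1 and r = -0.053 with that of Hbb-y, while the main probe sets of Hbb-bh1 and Hbb-y had r = -0.478. On the deposited scale, which keeps differences in the top of the range between arrays, those values were 0.32 and 0.443 for Hba-x and 0.539 for Hbb-bh1 with Hbb-y. These correlations share the arrays and their normalization and carry no test.

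The genes outside the 6 whose deviations were most like the mean deviation of the 6 were Midn (r = 0.907), Fads1 (0.901), Wdr81 (0.897), Ppm1a (0.895), Klhdc10 (0.893), Espl1 (0.893), Depdc5 (0.882) and Bphl (0.872), over 15 arrays and out of 13928 genes. The 99th percentile of r over those genes was 0.745. The 37 listed erythroid genes had a median r of 0.089, beside 0.066 over all genes. Gata1 and Alas2 had the largest SD within groups of the 6 (0.27 and 0.186 pooled over the groups), and on the deposited scale the same 8 genes had r from 0.477 to 0.672.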

How the data were processed

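The members and gene lists were chosen with earlier results of these data known. RNA of the mouse first branchial arch was measured on 15 arrays, 3 in each of 5 groups taken from the title tags. Per the deposited value table, the authors gave 1 linear intensity for each of 45101 probe sets. The 2% trimmed mean of each array was 150.0, so the arrays had been scaled before deposition. For the summary method and background correction, nothing is given in the sources used here. The number of arrays limits the precision.

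Here the intensities were converted to log2(intensity + 32) and quantile normalized. Of all probe sets 64 controls were left out, and a probe set was kept where 3 or more arrays read it over their own 40th percentile, which left 31643. By the annotation 34958 probe sets had 1 symbol, 932 had several and 9211 were unlisted. The gene table held 34754 of the first kind and changed 0 symbols. All groups entered 1 limma model (limma 3.58.1, R 4.3.3) with 10 residual degrees of freedom and a variance trend on intensity. The p values are two-sided, with Benjamini-Hochberg adjustment across all kept probe sets of a comparison. A gene was counted through its brightest kept probe set, with those marked x_at or s_at used only where there was no other. Named were the 6 genes with every probe set, called list genes of the 3 main comparisons (at most 6 a list), the brightest 2 genes of each list, and the 8 genes most like the 6. The probe sets given to several adult globin genes are an exception, chosen after their values were seen.

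Groups share replicate numbers, but over 30 same-number pairs of arrays the correlation of deviations ran from -0.096 to 0.085, with 0 over 0.1, and the numbers were therefore not treated as pairing arrays. Alternatives were other scalings, pseudocounts of 8 and 128, no filter or one at the 60th percentile, the replicate number as a block, fitting only the groups compared, no intensity trend, the other wild-type maxillary group, and each array left out. The procedure was tested on simulated data. Promoter windows came from RefSeq.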

Additional observations from a re-analysis of the deposited data

How the results depend on the processing

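Over 26 other settings 994 values of the member probe sets were compared with those reported. Of these 961 were called in neither setting, 80 of them with the other sign, 10 lost a call, 17 gained one, and 0 called values changed sign. The count of member genes called in WT_MNA against WT_MXA, 1 as reported, was 0 after the common median, on the deposited scale, without a filter, with only the groups compared, and without the intensity trend, and 0 to 1 with an array left out. It was 1 with the replicate block, where Hba-x had a limma adjusted p of 0.0248. Over its 16 alternatives Hba-x ran from 0.11 to 0.23, with limma adjusted p from 0.0122 to 0.302, and was called in 6. Reported counts of 0 became 1 in 5_6_MNA against WT_MNA on the deposited scale (Hbb-bh1), and 1 in WT_MXA2 against WT_MXA after the common median and on the deposited scale (Hba-x). In 5_6_MNA against WT_MXA the count became 2 after the common median (Hba-x and Hbb-bh1), 1 on the deposited scale, and 1 against WT_MXA2. The block changed no other count of member genes called. Of 40 called changes outside the 6 genes that are named or counted here, 24 were called under every alternative, and 93 of 628 values were not called. With the other wild-type maxillary group 2 took the other sign in WT_MNA, Isl1 (0.35) and the adult globin probe set 1417184_s_at (-0.24). With the replicate block Msx2 lost its call in KO_MXA. The cause was not tested.

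Over all probe sets, calls without the trend numbered 452, where 841 were reported (5_6_MNA against WT_MNA), 172, where 289 were (KO_MXA against WT_MXA2), 125, where 188 were (5_6_MNA against WT_MXA), 1634, where 2686 were (WT_MXA2 against WT_MXA), and 219, where 346 were (the difference of mutant effects). With the other wild-type maxillary group, which crosses the array sets, they were 3318, against 835 as reported, in WT_MNA, 3310 in KO_MXA, 3536 in 5_6_MNA and 2246 for the difference. Without 5_6_MNA replicate 2 or 3 the first count was 502 or 520, and without replicate 2 the third was 121. Without KO_MXA replicate 2, WT_MXA2 replicate 1 or WT_MXA2 replicate 3 the second was 189, 176 or 181, and without WT_MXA2 replicate 2 the fourth was 1774. After the common median the share of calls that were higher was 56.5%, against 42.6%, in WT_MNA against WT_MXA, 32.7%, against 50.9%, in KO_MXA against WT_MXA2, and 45.5%, against 34.0%, in 5_6_MNA against WT_MXA. Gata1 lay near the array median, where 3 arrays a group leave wide intervals.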
